A study of Ovis aries with 24 samples.

Results

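The longissimus dorsi (LD, the large muscle along the back) of lambs of the callipyge genotype was compared with the same muscle of lambs of 3 other genotypes at 11 to 12 weeks of age, a time point coded T12. The callipyge genotype is CN, the paternal heterozygote, which inherited the mutation from its father and a wild-type allele from its mother. It was set against CC, which carries the mutation on both alleles, NC, the maternal heterozygote, and NN, the wild type. Each genotype had 2 arrays of LD at T12, so 8 of the 24 arrays of the study were compared, 2 of CN and 6 of the other genotypes. The comparison was described over the 5946 of 24016 probe sets whose mean signal reached 200 in at least 1 of these 4 groups. The probe set just inside that limit had 200.001 in its brightest group, and the one just outside had 199.849. Of the 5946, 4285 carried 1 gene symbol, 27 carried several and 1634 carried none, and together they covered 3624 genes.

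The sheep were a cross of the Dorset, Suffolk and Rambouillet breeds. RNA was labelled and hybridised to a GeneChip designed for cattle, on which a gene is read by a probe set of short probes. LD of the same 4 genotypes at birth (T0), supraspinatus (SS, a shoulder muscle) of CN and NN at T12, and the muscles coded SM and ST of NN at T12 served as further values for the same genes. Both arrays of a genotype are technical replicates per the labels, whose protocols describe LD of 8 male lambs, 4 of each of a pair of genotypes, although 4 genotypes were hybridised. The number of lambs behind an array is therefore unknown, and a difference of genotype and a difference between single lambs or pools cannot be told apart.

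In callipyge sheep the muscles of the loin and hind limb enlarge after birth while those of the shoulder change little, and the enlarged muscles are known for more and larger fast fibres. The mutation lies between DLK1 and MEG3 in an imprinted cluster, in which DLK1 is expressed from the paternal allele and MEG3, a noncoding RNA, from the maternal allele. Enlargement appears in paternal heterozygotes alone, a mode of inheritance called polar overdominance, so CC and NC animals carry the mutation without the phenotype.

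The 8 arrays were close in level after the authors' scaling, though not equal. The median signal was 49.65 and 51.6 on the CN arrays and 53.6 to 58 on the other 6. Both CN medians thus lay below all others, and the part of this difference in the signals that fell in CN was not tested. The 2 arrays of a genotype correlated with r between 0.9702 and 0.976 in log2 signal over the 5946 probe sets. The log2 ratio of the 3′ to the 5′ GAPDH control probe set, a measure of RNA integrity, was −0.0332 and 0.0849 in CN, 0.0663 and 0.0433 in CC, 0.246 and 0.195 in NC, and 0.187 and 0.246 in NN. Skeletal muscle markers had a summed signal of 153100 and 177500 on the CN arrays and of 157000 to 191300 on the others, and all 7 on the array (among them ACTA1, CKM and TNNT3) reached a signal of 200.

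CN differed from the other genotypes by 6 probe sets that rose and 10 that fell among the 5946. The test was limma with an intensity trend on 1 mean log2 signal a group, two-sided, with Benjamini-Hochberg adjustment over the 15664 probe sets tested, and adjusted p ran between 0.0239 and 0.0499 for these 16. Over all probe sets tested, 0.0383% rose and 0.14% fell, and 12 further calls lay below a signal of 200 and are not described. At an unadjusted limma p under 0.05 stood 789 of the 5946 and 1562 of the 15664 tested. The calls lay close to the threshold: without single arrays of any group their number ran between 1 (without LD CC T0 replicate 1) and 150 (without LD CN T12 replicate 2), and it was 0 when NC was left out of the comparison and 36 when CC was.

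**Figure D1:**
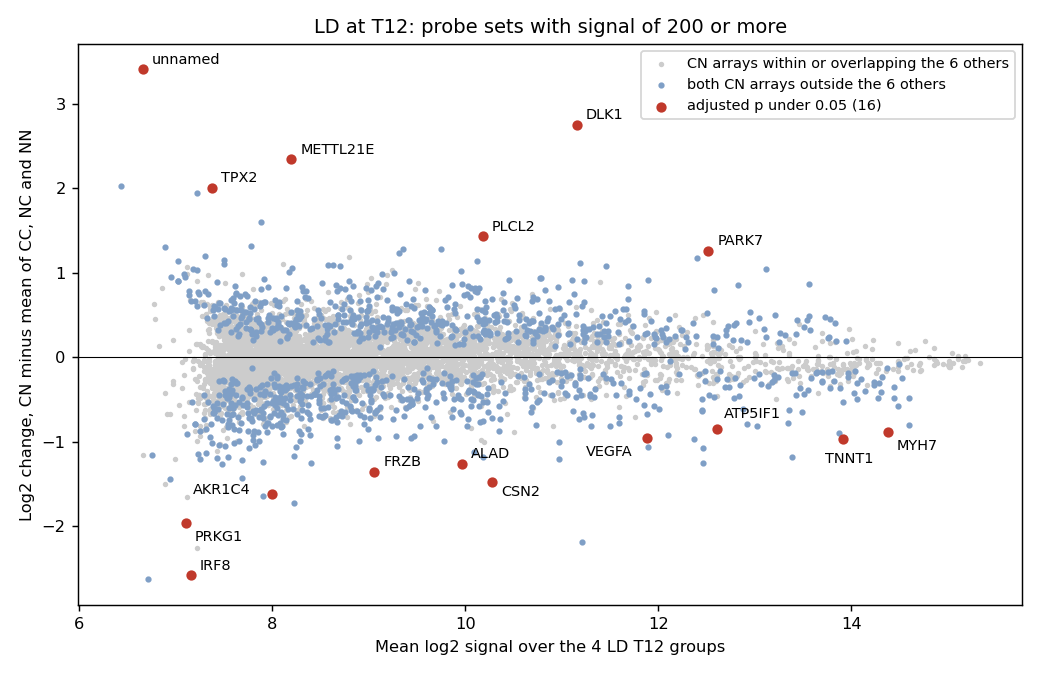
Change in CN against the other genotypes (vertical axis, log2) by mean log2 signal (horizontal axis) for the 5946 probe sets of LD at T12. Blue points are probe sets whose CN arrays both lay outside the 6 others, and red points are the 16 that passed the test, named where they have 1 symbol.

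DLK1, a transmembrane protein with epidermal growth factor repeats that is related to the Notch ligands, had signals of 11364.3 and 8064.3 on the CN arrays. CC arrays gave 2577.4 and 3081.4, NC arrays 990.5 and 940.6, and NN arrays 1042.3 and 1045.9. Both CN arrays lay above all 6 others, and CC stood between CN and the remaining genotypes. DLK1 rose 6.76-fold in CN, by 2.76 ± 0.454 in log2 (SE, limma adjusted p = 0.0493). A dimmer DLK1 probe set, with 174.9 in CN, 163.5 in CC, 86.02 in NC and 111.3 in NN, gave 0.59 ± 0.361 and did not pass (limma adjusted p = 0.667). In the shoulder muscle SS the DLK1 signals were nearly equal, 1220 for CN and 1217 for NN.

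MEG3, at the other side of the mutation, gave a different order of genotypes. Its arrays read 2680.7 and 2143.1 in CN, 13155.1 and 12584.3 in CC, 14112 and 12034.1 in NC, and 399.2 and 321.5 in NN. On this probe set CN therefore lay below both genotypes with a maternal copy of the mutation and above NN. The change against the mean of CC, NC and NN was −0.71 ± 1.78 (limma adjusted p = 0.95). The sign of that change depended on the genotypes in the mean: it was 0.15 without CC and 0.159 without NC. A dimmer MEG3 probe set, at 691.8 in CN, 2414 in CC, 2302 in NC and 484.8 in NN, also had CN above NN. Another read 122.5 in CN, 668.9 in CC, 559.2 in NC and 176.8 in NN. There both CN arrays lay below all 6 others, NN included (−1.72 ± 0.692, limma adjusted p = 0.416). The place of CN relative to NN thus depended on the probe set. Of the other 5 measured genes of the cluster and its flanks, WARS1, PPP2R5C, DYNC1H1 and EVL overlapped, with changes between −0.19 and 0.20. Both CN arrays of YY1, a zinc finger transcription factor, lay above the 6 others (0.30 ± 0.153, limma adjusted p = 0.573). On a second YY1 probe set, at 462.8 in CN, 561 in CC, 369.6 in NC and 589 in NN, the groups overlapped (−0.10 ± 0.283, limma adjusted p = 0.958). A further one, dim in all groups, gave 0.27 ± 0.456 (limma adjusted p = 0.913).

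**Figure D2:**
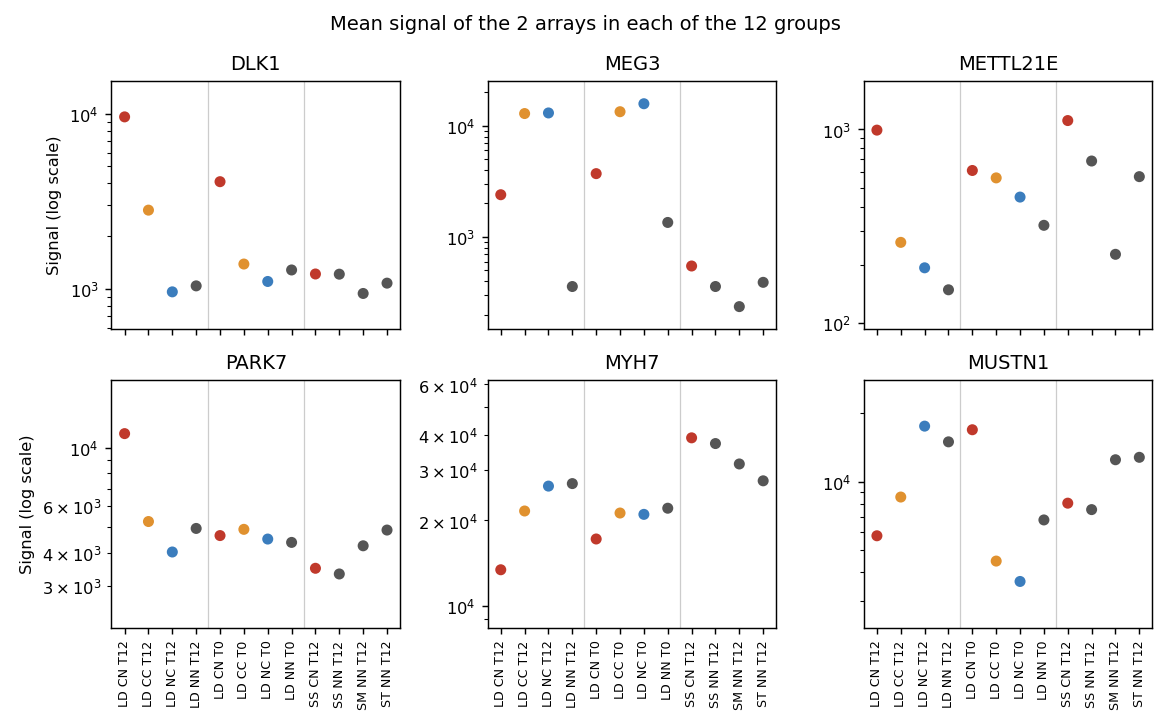
Mean signal of the 2 arrays (log axis, each panel with its own range) in the 12 groups for 6 genes, coloured by genotype, with LD at T12 on the left, LD at T0 in the middle and the other muscles on the right. DLK1 in LD at T12 was 9573 in CN against 965.2 to 2818 in the others, and MEG3 was 2397 in CN against 358.2 in NN and 12870 to 13030 in CC and NC.

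METTL21E, a putative protein lysine methyltransferase of skeletal muscle, was at 899.9 and 1094.5 in CN, 268.3 and 254.3 in CC, 215.7 and 172.6 in NC, and 168.1 and 131.4 in NN. The CN arrays stood above all others, and the gene rose 5.07-fold (2.34 ± 0.332 in log2, limma adjusted p = 0.0371). A separate METTL21E probe set had 408.5 in CN against 82.82 to 136.8 in the other genotypes, a change of 1.94 ± 0.341 that did not pass (limma adjusted p = 0.061). In SS, METTL21E was at 1112 in CN and 687.3 in NN, with both CN arrays above both NN arrays.

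PARK7, which protects cells against oxidative stress, read 12101.7 and 10544.3 in CN against 3867.6 to 6267.2 on the other 6 arrays. It rose 2.4-fold (1.26 ± 0.161, limma adjusted p = 0.0305), without overlap between the groups. PLCL2, a phospholipase C-like protein without catalytic activity, read 2537.8 and 2369.7 in CN, 1173 and 1186.2 in CC, and 719.5 to 863.5 in NC and NN, and it rose 2.71-fold (1.44 ± 0.236, limma adjusted p = 0.0493). As with DLK1, CC was the genotype nearest to CN.

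TPX2, a protein of the mitotic spindle, differed between the 2 CN arrays, at 660.1 and 338.1, yet both lay above the 82.3 to 165.7 of the other genotypes. It rose 4.03-fold (2.01 ± 0.333, limma adjusted p = 0.0499). A second TPX2 probe set had 247.6 in CN against 22.29 to 160.3 elsewhere, a change of 2.02 ± 0.808 (limma adjusted p = 0.415). Of 24 listed proliferation genes on the array, 6 reached a signal of 200 and were measured, and TPX2 was the 1 that passed. It reached 200 in CN alone, at a mean of 472.4 against 98.65 to 163.4, so the limit admitted it only because CN was high. Of the other 5, CDKN1A was positive (0.39). PCNA, CDKN1C, the cyclin CCND2 (−0.39) and the replication helicase subunit MCM5 (−0.40) were negative, and the list's median was −0.12. In the sheep gene table of RefSeq, TPX2 is the immediate neighbour of MYLK2, the myosin light chain kinase of skeletal muscle, which read 606 and 489.2 in CN against 83.1 to 357.9 in the others, a change of 1.605 ± 0.476 that did not pass (limma adjusted p = 0.251).

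The sixth probe set that rose has no gene symbol in the annotation used. It had the largest positive change of the 5946, with 517.6 and 683.6 in CN against 38.7 to 88.3 in the other genotypes (3.41 ± 0.374, limma adjusted p = 0.0239). Since 49.65 was the lowest array median, the dim side may not lie above background, and the size of that change is uncertain.

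Among the genes that fell were 2 of the slow fibre, the fibre type of sustained contraction. MYH7, the slow myosin heavy chain, read 14392.3 and 12532.5 in CN against 19804.5 to 29118.3 in the others, 1.85-fold lower (−0.89 ± 0.143, limma adjusted p = 0.0493). TNNT1, the slow troponin T, read 9770.9 and 8875 in CN against 15818 to 20774.7, 1.96-fold lower (−0.97 ± 0.138, limma adjusted p = 0.0371). Neither gene overlapped between CN and the others. A second MYH7 probe set did not show the difference, at 3734 in CN and 3311 to 3590 in the others (0.12 ± 0.198, limma adjusted p = 0.912).

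VEGFA, the growth factor of blood vessels, read 2336.5 and 2264.5 in CN against 4224 to 4707.4 in the other genotypes, and it fell 1.94-fold (−0.96 ± 0.127, limma adjusted p = 0.0305). A dimmer VEGFA probe set gave 148.8 in CN against 222.2 to 273.3 (−0.72 ± 0.253, limma adjusted p = 0.33), also without overlap. ATP5IF1, the inhibitor of the mitochondrial ATP synthase, read 3808.5 and 4222.7 in CN against 6218 to 8604.5, and it fell 1.8-fold (−0.85 ± 0.133, limma adjusted p = 0.0484). ALAD, an enzyme of haem synthesis, read 571.1 and 468.4 against 1028.1 to 1459 and fell 2.4-fold (−1.26 ± 0.198, limma adjusted p = 0.0492).

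FRZB, a secreted inhibitor of Wnt ligands, read 268.8 and 258.3 in CN against 577.5 to 823.3 and fell 2.56-fold (−1.36 ± 0.197, limma adjusted p = 0.0395). PRKG1, the cyclic GMP-dependent kinase, read 87.1 and 28.4 in CN against 154.3 to 246.9 (−1.96 ± 0.251, limma adjusted p = 0.0305), and the 2 CN arrays differed widely at this low signal. IRF8, a transcription factor of myeloid and B cells, read 35.2 and 39.5 in CN, below the lowest array median, against 187.9 to 282.8 in the others (−2.58 ± 0.296, limma adjusted p = 0.0239). Its second probe set was dim in all genotypes, with 17.42 in CN against 26.75 to 43.33.

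In both remaining genes another probe set gave a different value from the one called. The probe set annotated to CSN2, a milk casein, read 545.3 and 611.1 in CN against 1072.1 to 2539.6 (−1.48 ± 0.241, limma adjusted p = 0.0493). Its name ends in x_at, which marks probes that may also bind other transcripts, and a separate CSN2 probe set gave 44.19 in CN against 16.5 to 24.94, a change of the opposite sign (1.16 ± 0.616, limma adjusted p = 0.596). AKR1C4, an aldo-keto reductase named here after its values were seen because its call is not on its brightest probe set, read 113 and 107.4 in CN against 307.7 to 414.9 (−1.62 ± 0.246, limma adjusted p = 0.0465). Its brightest probe set read 270.4 and 445.9 in CN against 352.1 to 665.1, and the groups overlapped (−0.46 ± 0.265, limma adjusted p = 0.644).

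**Figure D3:**
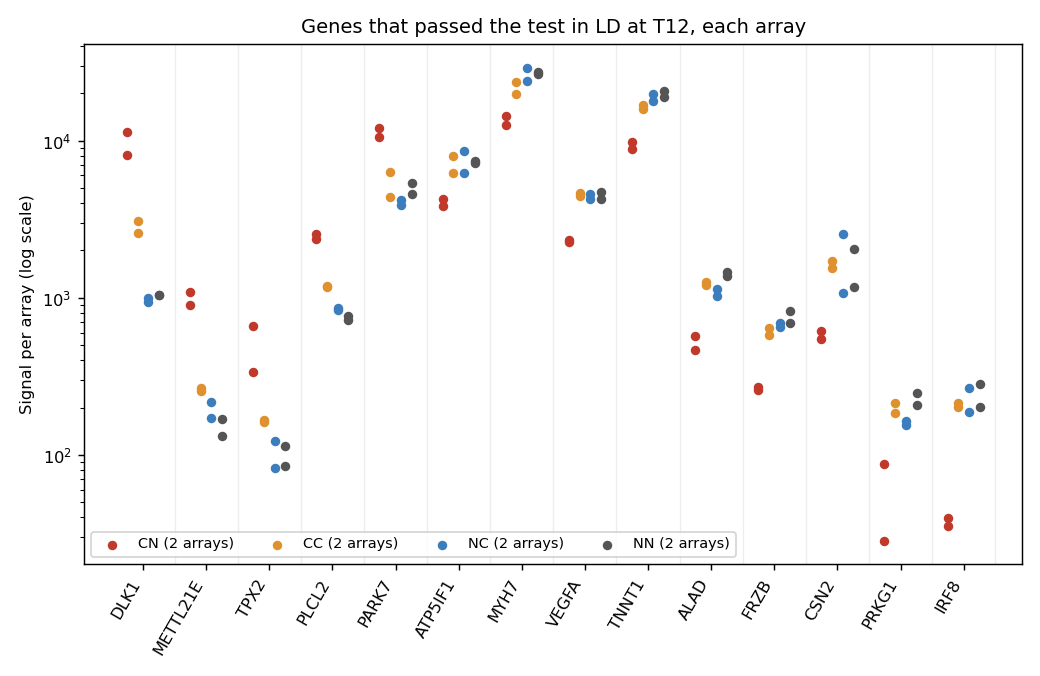
Signal on each of the 8 LD T12 arrays (log axis) for the 14 genes whose brightest probe set passed the test, ordered by change, with CN at the left of each gene. In all 14 both CN arrays lie outside the 6 arrays of the other genotypes. In the 5 that rose the mean of CC is the nearest to CN. Among those that fell, CC is nearest in MYH7, TNNT1, ATP5IF1, FRZB and IRF8. Another genotype is nearest in VEGFA, ALAD, PRKG1 and CSN2.

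A wider set was described without a test, by whether both CN arrays lay above the highest or below the lowest of the 6 others. This held for 559 probe sets above (9.4% of the 5946) and 575 below (9.67%), while over all 15664 tested it held for 5.06% above and 7.58% below. A probe set dim in the other genotypes could enter through CN alone, and the reverse. In this way 52 of the 559 reached 200 in CN alone, with 2 of the 6 calls (TPX2 and the probe set without a symbol), and 146 of the 575 reached it in other genotypes but not in CN, with 3 of the 10 calls (IRF8, PRKG1 and AKR1C4). These had to differ for the limit of 200 to admit them on 1 side, so the 9.4% and 9.67% give no support of their own. The difference was 1 or more in log2 for 31 of those above and 38 of those below. Over the 5946 the median change was −0.011, and the 5th and 95th percentiles were −0.59 and 0.53.

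The largest of these differences that did not pass the test named genes of several functions. Above the others in CN stood CDK2AP1, an inhibitor of the cell cycle kinase CDK2, with 2134.6 and 1911.5 in CN against 767.8 to 1074.1 (1.14 ± 0.194, limma adjusted p = 0.0569). DNTTIP1, a subunit of a histone deacetylase complex, had 11097.7 and 8896.2 in CN against 3148.7 to 6108.5 (1.18 ± 0.245, limma adjusted p = 0.0938), and CC was again nearest to CN. CTNNBIP1, which blocks the binding of beta-catenin to its transcription factors, had 1004.7 and 527.1 in CN against 290.3 to 430 (1.08 ± 0.215, limma adjusted p = 0.0756). Others of this kind besides MYLK2 were SCMH1 of the Polycomb group, EHBP1L1, the haem-binding HEBP2, the carnosine synthase CARNS1 and RNPEPL1, with changes of 1.04 to 1.30 and adjusted p of 0.187 to 0.352. SCMH1, HEBP2, CARNS1 and RNPEPL1 reached 200 in CN alone, so the limit admitted them only because CN was high.

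Below the others in CN stood MYL3, a myosin light chain of slow and cardiac muscle, with 652.9 and 876.1 in CN against 2246.4 to 5562.7 (−2.19 ± 0.421, limma adjusted p = 0.0727). The order in MYL3 was CN, CC, NC and NN, at 756.3, 2370, 3293 and 5296. AQP4, the water channel of the fibre membrane, had 709.9 and 558.8 in CN against 995.7 to 1760.7 (−1.18 ± 0.206, limma adjusted p = 0.061). On a second AQP4 probe set, at 186.9 in CN against 224.4 to 344.6 in the group means, arrays overlapped (−0.61 ± 0.266, limma adjusted p = 0.472). EGLN3, a prolyl hydroxylase that acts on hypoxia-inducible factors, had 78.4 and 123.3 in CN against 197.7 to 391.3 (−1.43 ± 0.255, limma adjusted p = 0.0635). The neurotrophin receptor NTRK2, the peroxisomal enzyme PHYH, the protease CTSS, the glutathione peroxidase GPX2, the cardiac actin ACTC1, ARMC6 and MUSTN1 had changes of −1.65 to −1.18 and adjusted p of 0.0739 to 0.41. EGLN3, NTRK2, CTSS, GPX2 and ARMC6 reached 200 in other genotypes but not in CN, so the limit admitted them only through those genotypes.

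Gene lists were described by the count of their members on either side of 0 and by their median, beside a median of −0.056 over all probe sets tested. Of 12 measured genes of the slow fibre, all 12 had negative changes, 9 had both CN arrays below all others, and MYH7 and TNNT1 passed the test. The median change was −0.55. MYL2, the slow regulatory light chain, read 16828.2 and 16960.9 in CN against 22146.5 to 29717.7 (−0.58 ± 0.136, limma adjusted p = 0.137).

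The 13 measured genes of the fast fibre did not mirror this, with 6 positive and 7 negative changes, a median of −0.02 and no call. Both CN arrays of ACTN3, the actinin of fast fibres, lay above the others, at 14065.8 and 13802 against 8946.2 to 12381.9 (0.44 ± 0.152, limma adjusted p = 0.324). The fast calcium pump ATP2A1 overlapped, at 27253.3 and 22667.2 in CN against 19341.3 to 25224.4. The median of this list changed sign without single arrays, between −0.08 and 0.12.

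**Figure D4:**
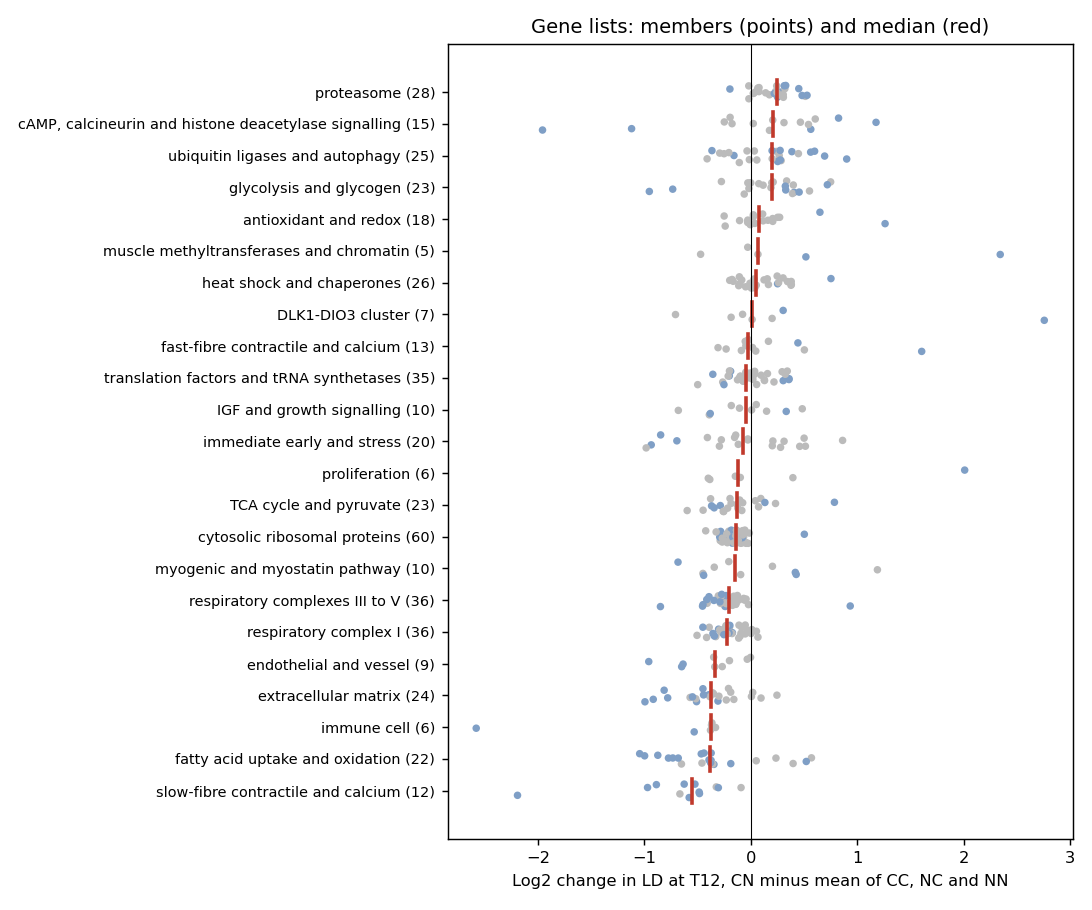
Log2 change in LD at T12 for each measured gene of the lists with 5 or more measured genes (points, blue where both CN arrays lay outside the 6 others) and the median of each list (red), with the number of genes in brackets. The slow-fibre list has the lowest median, −0.55, and the proteasome list the highest, 0.24.

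Genes of fatty acid uptake and oxidation were mostly lower in CN. Of 22 measured, 17 had negative changes and 14 had both CN arrays below all others, with a median of −0.39 and no call. HADHA, a subunit of the trifunctional enzyme of beta-oxidation, read 1452.4 and 982.3 in CN against 1576.4 to 3202.3 (−0.9985 ± 0.185, limma adjusted p = 0.0666). ACADVL, the dehydrogenase of very long chains, read 2263.5 and 1879.3 against 3223.7 to 4377.7 (−0.77 ± 0.152, limma adjusted p = 0.0745). LPL, which frees fatty acids at the vessel wall, read 193.2 and 89.2 against 227 to 326 (−1.05 ± 0.233, limma adjusted p = 0.121).

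Subunits of the respiratory chain had smaller changes per gene. In complex I, 32 of 36 had negative changes with a median of −0.22, and in complexes III to V, 35 of 36 with a median of −0.20 and ATP5IF1 as the 1 call. UQCRQ of complex III was the exception, at 377.5 and 405.5 in CN against 129.2 to 323.3 (0.93 ± 0.319, limma adjusted p = 0.316). In the TCA cycle, 17 of 23 were negative (median −0.13), and ME1, the cytosolic malic enzyme, stood above the others at 480.6 and 499.5 against 243.7 to 337.1 (0.79 ± 0.185, limma adjusted p = 0.139).

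Glycolysis and glycogen genes had 15 positive and 8 negative changes, a median of 0.20 and no call. PGM1, which links glycogen and glucose phosphates, read 20343.5 and 15656.8 in CN against 10988.6 to 15134.9 (0.45 ± 0.143, limma adjusted p = 0.273). LDHB, the lactate dehydrogenase subunit typical of oxidative tissue, read 359.4 and 492.3 against 564.4 to 1179.9 (−0.95 ± 0.346, limma adjusted p = 0.351). PPP1R3C, which targets a phosphatase to glycogen, also lay below the others (−0.73 ± 0.213, limma adjusted p = 0.242).

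Proteasome subunits were positive in 25 of 28 cases, 9 with both CN arrays above all others and 1 with both below, with a median of 0.24 and no call. PSMB5, a catalytic subunit, read 4010.2 and 3872.9 in CN against 2560.4 to 3092.3 (0.45 ± 0.129, limma adjusted p = 0.237). Of 25 ubiquitin ligases and autophagy genes 16 were positive, with a median of 0.20, and ASB8 read 1274.9 and 1183.6 against 676.8 to 960.5 (0.60 ± 0.179, limma adjusted p = 0.252). Cytosolic ribosomal proteins were negative in 59 of 60 cases, each by little (median −0.14), and RPL39 alone was positive, at 12547.4 and 12105.7 in CN against 7641.8 to 9383.7 (0.50 ± 0.192, limma adjusted p = 0.393).

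In the myostatin pathway and the myogenic factors, 4 of 10 changes were positive and none passed. MSTN, the inhibitor of muscle growth, read 1055.1 and 639.5 in CN against 218 to 705.1, so the groups overlapped (1.19 ± 0.493, limma adjusted p = 0.435). A second MSTN probe set was at 261.2 in CN, 259.1 in CC, 114.3 in NC and 183.3 in NN (0.57 ± 0.431, limma adjusted p = 0.747). FST, which binds myostatin, read 201.3 and 185.2 against 258.2 to 378.8 (−0.68 ± 0.202, limma adjusted p = 0.251). Genes of IGF signalling were positive in 5 of 10 cases, and IGF2 read 2183.2 and 1806.8 in CN against 1581 to 2060.8 (0.09 ± 0.166, limma adjusted p = 0.92).

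Signalling through calcineurin, cyclic nucleotides and histone deacetylases gave 10 positive and 5 negative changes, a median of 0.20, and PRKG1 as the 1 call. RCAN1, an inhibitor of calcineurin, read 597.5 and 618.9 in CN against 843.7 to 1936.5 (−1.12 ± 0.198, limma adjusted p = 0.061). Among chaperones, 17 of 26 were positive, and BAG3, a co-chaperone of the contractile apparatus, read 1668.1 and 1402.7 against 836.7 to 994.6 (0.75 ± 0.169, limma adjusted p = 0.124).

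Extracellular matrix genes were negative in 20 of 24 cases, 10 with both CN arrays below all others, with a median of −0.37 and no call. COL1A1, a chain of type I collagen, read 2715.4 and 2714.1 in CN against 4145.4 to 7355.1 (−0.92 ± 0.259, limma adjusted p = 0.232), and COL1A2, its partner chain, read 7695.9 and 6268.6 against 9400.4 to 15598.9 (−0.78 ± 0.181, limma adjusted p = 0.132). The markers of fibroblasts and matrix are largely matrix genes themselves, COL1A1, COL1A2, COL3A1, FN1 and POSTN being on both lists, so their sum (29310 and 33730 in CN against 39550 to 54250) is no separate measure of fibroblasts. Markers that are not matrix genes did not lie below the others: the surface protein THY1 was at 253.9 in CN against 183.5 to 235.8 in the group means, and the receptor PDGFRA, dim in all groups, at 82 against 54.51 to 114.5. In whole muscle, fewer cells of a type and less RNA per cell cannot be told apart.

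Sums over markers of several other cell types were also lower in CN. Immune markers summed to 659.9 and 695.2 in CN against 1049 to 1269, and without IRF8 to 624.7 and 655.7 against 807.5 to 1068, while PTPRC and CD79A lay below the lowest array median. Adipocyte markers summed to 714.9 and 758 against 967.9 to 1266, with LEP and CIDEC below that median, and tendon and cartilage markers to 301.1 and 341.8 against 504.5 to 1215. Nerve and Schwann cell markers summed to 292.4 and 340.1 against 343.6 to 631.6. Endothelial markers summed to 3274 and 3357 against 3296 to 4384 and overlapped, as did those of smooth muscle, satellite cells and red blood cells. The list of endothelial and vessel genes, which also holds the growth factors VEGFA and VEGFB, was negative in all 9 measured, with a median of −0.34. The changes of PECAM1 (−0.03) and ENG (−0.003) were slight. FLT1 reached 200 in the other genotypes but not in CN, so the limit admitted it only through those genotypes. Of the 9 genes, 3 had both CN arrays below all others, and VEGFA was the 1 call. The part of these cell types in the values of IRF8, VEGFA, LPL and the matrix genes was not tested.

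The genotype nearest to CN was counted for each of these probe sets. Of the 559 probe sets with CN above, the nearest genotype was CC in 42.6%, NC in 24.2% and NN in 33.3%, while over the 5946 the highest of these 3 was CC in 32.6%, NC in 35% and NN in 32.4%. Of the 575 with CN below, the nearest was CC in 44.9%, NC in 23.7% and NN in 31.5%, while over the 5946 the lowest was CC in 34.2%, NC in 31% and NN in 34.8%. The 3′ to 5′ ratios of GAPDH given above were also lower in CN and CC than in NC and NN. The log2 ratios of the actin control probe sets were highest on the first arrays of NC and NN, while the second arrays of both lay near those of CN. These ratios were 0.0473 and 0.036 in CN, 0.0933 and 0.115 in CC, 0.294 and 0.0314 in NC, and 0.203 and 0.0371 in NN. The part of RNA integrity in this pattern was not tested.

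LD at birth gave values of the same genes on arrays that LD at T12 did not use. At T0, 0.172% of all probe sets tested passed, 22 of them among the 5946, and none of these was among the 16 called at T12. Still, of the 559 probe sets with CN above at T12, 64.6% had a positive change at T0, against 49.2% of all 5946, and 24.7% had both CN arrays above all others again, against 14% of all. Of the 575 below, 67.5% had a negative change at T0, against 50.8%, and 31% were again below all others, against 15%.

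Of the 14 genes called on their brightest probe set, 13 had the same sign at T0, the exception being TPX2. DLK1 at T0 was 4093 in CN against 1106 to 1390 in the others (1.71, limma adjusted p = 0.149). PARK7, in contrast, was 4650 in CN against 4381 to 4909 at T0 (0.02, limma adjusted p = 0.983), and PLCL2 was 675.2 against 443.5 to 510.2. All 12 slow-fibre genes were negative at T0 as well, with a median of −0.20, and MYH7 stood at 17220 in CN against 21010 to 22080. This was not particular to the slow fibre at that age, since 12 of 13 fast-fibre genes (median −0.26), 18 of 23 of glycolysis and glycogen (−0.23), all 36 of complex I (−0.52) and all 36 of complexes III to V (−0.41) were negative too.

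The difference between the effect of CN at T12 and at T0 was itself tested. In limma 0% of all probe sets passed, and the smallest adjusted p was 0.105. At an unadjusted limma p under 0.05 stood 695 of the 5946 and 1392 of the 15664 tested. For PARK7 that difference had an adjusted p of 0.197, for METTL21E 0.289 and for DLK1 0.708. No gene was thus shown to change by a different amount at T12 than at birth. The 2 ages share no arrays.

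In SS at T12, where CN was set against NN, 0% of all probe sets tested passed in limma, with 162 of the 5946 at an unadjusted p under 0.05. Of the 559 probe sets with CN above in LD, 71.6% were positive in SS, against 50.4% of all, and 38.5% had both CN arrays above both NN arrays, against 18%. Of the 575 below in LD, 67.3% were negative in SS, against 49.6%, and 31.7% were below both NN arrays, against 18.4%. The sources used here do not say whether LD and SS came from the same lambs, so an effect of genotype and one of the lamb cannot be told apart.

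Single genes divided in SS. DNTTIP1 was 2360 in CN against 898.1 in NN, FRZB 503.5 against 875.5, and NMRK2, a kinase of NAD synthesis in muscle, 1787 against 805.2, all without overlap between arrays and in the direction of LD. The slow fibre genes MYH7, at 38990 in CN and 37230 in NN, and MYL2, at 39410 in CN and 36850 in NN, overlapped. TNNT1 was lower in both CN arrays than in both NN arrays of SS, at 27550 in CN against 29350 in NN, and the slow-fibre list had 7 positive and 5 negative changes with a median of 0.04. MYL3 was lower in CN in SS too, at 3470 against 6156, and VEGFA was at 2206 against 2811. The difference of the CN effect between LD and SS was tested as well. In limma 0% of all probe sets passed, and the smallest adjusted p was 0.343. At an unadjusted limma p under 0.05 stood 218 of the 5946 and 778 of the 15664 tested.

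**Figure D5:**
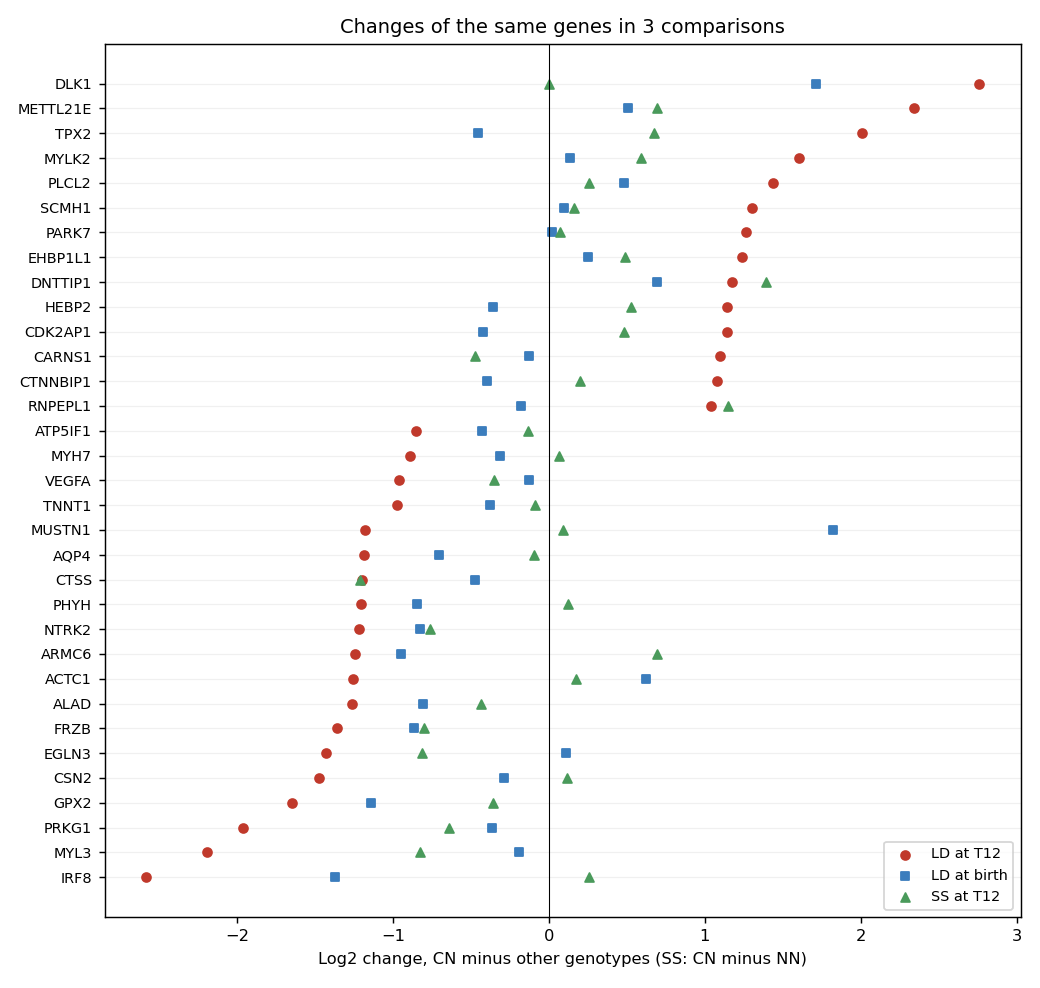
Log2 change in CN for 33 genes called or most different in LD at T12 (red circles), and the change of the same genes in LD at birth (blue squares) and in SS at T12 (green triangles). Of the 14 higher genes 8 are also positive at birth and 13 in SS, and of the 19 lower genes 16 are also negative at birth and 12 in SS.

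The same probe sets were also compared between wild-type muscles, without any LD array. NN muscle had SS above both SM and ST for 39.5% of the 575 probe sets with CN below, against 33.7% of all 5946, and for 25.8% of the 559 with CN above. SS was below both for 50.8% of the 559 with CN above, against 40.6% of all, and for 37% of the 575. Of the slow-fibre genes, 10 of 12 were higher in SS than in both SM and ST of NN lambs.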

How the data were processed

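Muscle RNA of 24 samples was measured on 24 bovine Affymetrix arrays, 12 groups of 2. The authors deposited linear intensity per probe set, made with MAS5, of a version not stated, per the submitters' processing notes. They scaled each array to a common 2% trimmed mean, as the values show. Sheep RNA may bind the cattle probes less well, and the number of arrays limits precision. Of 579072 values, 4295 below 1 were set to 1, log2 was taken, and the 2 technical arrays of a group were averaged.

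limma 3.58.1 in R 4.3.3 (lmFit, eBayes with trend, tested on simulated data) was fitted to the 12 group values in 8 cells, CC, NC and NN of LD at 1 age being 3 values of 1 cell. This left 4 residual degrees of freedom (prior 6.88), and CN, with 1 value, is assumed to vary like the other genotypes. In SS, CN and NN had 1 value each, so their spread was taken from the LD groups. The p-values measure the spread between group values. Of 24128 probe sets, 112 controls were left out, and the 15664 above the median log2 signal in at least 1 group were tested. The threshold was an adjusted p under 0.05.

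Genes were named from the platform annotation of 2016, and 3458 of the 3624 symbols are also in the RefSeq table of sheep assembly ARS-UI_Ramb_v3.0. No sequence or coordinate is given. The brightest probe set stood for a gene. Named were all that passed, the 15 largest changes on each side among those with CN outside the other 6 arrays, the imprinted cluster, and up to 4 of smallest p in each of 27 lists. Of these, 1 gene is not reported here. The members, lists and markers were chosen with earlier results of these data known. The alternatives tried were 10 other settings and the loss of each of the 24 arrays.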

Additional observations from a re-analysis of the deposited data

Results flagged for a closer look

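For 5 of the genes that differed most in LD at T12, both CN arrays lay on the opposite side of all arrays of the comparison genotypes at birth or in SS. TPX2 had a change of −0.455 at birth, against 2.01 at T12, CDK2AP1 one of −0.42 against 1.14, and CTNNBIP1 one of −0.395 against 1.08. MUSTN1, a nuclear protein of the musculoskeletal system, had 1.82 at birth and 0.0939 in SS, against −1.18 in LD at T12, with signals at birth of 16930 in CN and 3650 to 6800 in the others. ACTC1, the cardiac actin, had 0.175 in SS, against −1.25 in LD. In the test of the difference itself none passed: limma adjusted p was 0.197 for TPX2, CDK2AP1 and MUSTN1 and 0.201 for CTNNBIP1 between the ages, and 0.997 for ACTC1 and MUSTN1 between the muscles.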

How the results depend on the processing

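The number of probe sets that passed for CN in LD at T12, 16, was 8 with no filter on dim probe sets, 8 after quantile normalization, 3 with the 4 LD T12 group values alone, 36 without CC in the comparison (15 shared with the 16), 0 without NC, 6 without NN and 0 without the intensity trend. With all 24 arrays, the group as a random block and the replicate number as a replicate block, it was 178 (15 shared). That fit changes these choices together, and their parts in the rise were not separated. Its within-group correlation was 0.0373 and it had 15 residual degrees of freedom, so it treats technical arrays as nearly independent. The labels give the replicate numbers no meaning beyond naming samples. Same-numbered arrays of 66 pairs of groups had correlated deviations of −0.411 to 0.544, with a median of 0.0936, so those of some pairs deviated together. Without 1 array it ran between 1 and 150: 74 and 150 without LD CN T12 replicate 1 and 2, where CN rests on 1 array, 8 and 2 without the first and second array of NC at T12, 5 and 10 without those of NN at T12, 2 without the first of CC at T12, and at birth 1 and 9 without those of CC, 5 and 9 without those of NC and 4 and 8 without those of NN.

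The number for the difference between the ages, 0, was 1 with 16 added before log2, 121 with the 24 arrays, random group block and replicate block, 11 without CC and 0 to 21 without 1 array. That between the muscles, 0, was 1 without CC, 2 without NN and 0 to 2 without 1 array. At birth the number, 22, was 79 with only the brighter probe sets tested, 6 after quantile normalization, 61 with 16 added, 457 with that same fit to 24 arrays, 215 without CC, 0 without NC, 4 without NN, 0 without the trend and 2 to 155 without 1 array. In SS, 0 became 1 with that fit and 0 to 3 without 1 array. With a signal of 400 in place of 200, 376 probe sets lay below all others in CN. The causes of these moves were not tested.

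Of the calls, IRF8 remained in 23 of the 24 fits without 1 array, PARK7 and PRKG1 in 21, VEGFA in 20, FRZB and METTL21E in 18, TNNT1 in 17, ATP5IF1 in 14, ALAD in 12, CSN2 in 9, MYH7 in 7, DLK1 in 6, PLCL2 in 5 and TPX2 in 3. None of these 14 changed sign. MEG3 turned to 0.15 without CC and 0.159 without NC. PPP2R5C turned to −0.139 without NN in the comparison, and without 1 array it ran between −0.206 (the first CN array of LD at T12 left out) and 0.23, also below 0 at −0.02 without the second of NC and −0.021 without the second of NN. Without 1 array of CN in LD at T12, DYNC1H1 ran between −0.293 and 0.137, MYOZ3 between −0.788 and 0.171, BOLA-DRA between −0.888 and 0.224, PSPH between −0.132 and 0.322 and IGF2 between −0.042 and 0.231, and SMYD2 was −0.021 without the second. Signals near or below the array medians limit the size of changes in dim genes.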

Other observations

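Several genes outside the lists of contraction and energy supply had both CN arrays apart from the others in LD at T12 without passing the test. ATF4, a transcription factor of the amino acid response, read 16889.1 and 14295 in CN against 10006.2 to 12321.6 (0.48 ± 0.17, limma adjusted p = 0.33). SETD7, a lysine methyltransferase, read 2851.9 and 3070 against 1946.3 to 2375.9 (0.52 ± 0.276, limma adjusted p = 0.596). The early response gene IER2 read 313.7 and 341.5 against 434.1 to 679.7 (−0.85 ± 0.218, limma adjusted p = 0.182). CDH5, the cadherin of endothelial junctions, read 326.6 and 326.1 against 359 to 607.4 (−0.64 ± 0.213, limma adjusted p = 0.307), and at birth it was 277.8 in CN against 504.7 to 588.1.

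Of the 5946 probe sets, 115 reached a signal of 200 in CN alone and 793 in another genotype but not in CN. Of the 34 genes called or most different, 14 had 15 further tested probe sets, of which 12 had the same sign as the brightest, 3 the opposite sign (among them those of MYH7 and CSN2), and none passed.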
